A study of Drosophila melanogaster with 12 samples.

Results

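The genes described here are the 6 basic helix-loop-helix (bHLH) genes of the Enhancer of split complex, E(spl)-C, that the count tables list under the older symbols HLHm3, HLHm5, HLHm7, HLHmbeta, HLHmdelta and HLHmgamma. They were chosen by symbol, with earlier results of these counts known, and they are 6 of the 14161 genes counted. All 6 had at least 1 read in some library, but only HLHm7 reached the count minimum for a test, a mean of at least 50 reads in at least 1 group. The measurements are RNA-seq read counts from whole Drosophila embryos of 2 genotypes and 2 collections, in 4 groups of 3 libraries. The study asked how embryos without maternal serine hydroxymethyl transferase (SHMT), an enzyme of one-carbon metabolism, differ from wild type during the rapid syncytial cycles.

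Wild type was OregonR. The other genotype was embryos laid by females whose germline was homozygous for SHMT[X238], called SHMT embryos here. The clones were induced with a heat-shock Flp recombinase, the soma of these females was heterozygous, and the mutant chromosome also carried a mutation in pn. The collections are labelled 0–1 hr (preblastoderm) and 1.5–2.5 hr (late blastoderm), timed from egg laying. The replicates are described as biological, but no label states that they came from separate parents, so the spread between them may be partly technical.

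Notch signalling passes between touching cells. The ligands Delta and Serrate activate the receptor Notch, whose released intracellular part joins the DNA-binding protein Su(H) and the coactivator Mastermind to switch on target genes, with E(spl)-C best known among them. The E(spl) bHLH proteins are repressors that recruit the corepressor Groucho and hold proneural genes in check during neuroblast selection. At the end of the blastoderm stage E(spl) bHLH genes are known for expression in the mesectoderm, the row of cells between mesoderm and neurogenic ectoderm.

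In the annotation BDGP6, the complex lies on chromosome arm 3R and holds 13 of the genes counted, in the order HLHmdelta, HLHmgamma, HLHmbeta, malpha, m1, m2, HLHm3, m4, HLHm5, m6, HLHm7, E(spl) and gro. The symbol E(spl) stands for the gene now called E(spl)m8-HLH, which has a bHLH protein as well and so makes 7 bHLH genes in all. It was assigned by elimination, since the other 12 genes have a line of their own. All 6 members have a single exon, with exon lengths from 882 to 1305 bases, and no other annotated gene overlaps them. HLHmbeta and HLHm5 lie on the minus strand and the other 4 on the plus strand. The members are related in sequence, and how reads from shared stretches were assigned was not tested.

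The libraries held 21045142 to 35106444 reads in genes, 86.9 to 93.9% of all reads. The share outside genes was above 11% in replicate 1 of both genotypes at the 0–1 hr label, with 11.7% in wild type and 11.4% in SHMT. The mutant chromosome's marker pn stood at 38.5 to 57.3 CPM (reads relative to library size, with sizes scaled by the trimmed mean of M values, TMM) in the wild-type and 1.14 to 4.01 CPM in the SHMT libraries, in accord with the genotype labels. The stage labels went against the stage markers. Summed over 7 zygotic blastoderm genes, including slam, bnk and ftz, the libraries labelled 0–1 hr held 4323 to 11410 CPM and those labelled 1.5–2.5 hr only 158 to 270 CPM. Summed over 7 maternal genes, including osk, exu and cort, they held 232 to 523 and 1798 to 2657 CPM. No library was moved, and groups keep the names of their labels throughout. If the labels of the 2 collections were exchanged, each value below belongs to the other collection, and the sign of each genotype difference stays. The sign of each difference between the labels, and of each interaction of genotype and label, would then turn.

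HLHm7 had by far the most reads of the 6 genes, and its RNA was higher in SHMT than in wild-type embryos at the 0–1 hr label. The 3 wild-type libraries held 93, 38 and 45 reads of it, and the 3 SHMT libraries 280, 293 and 289. Scaled to library size these were 3.53, 2.12 and 2.24 CPM in wild type against 13.3, 13.3 and 14.9 CPM in SHMT. Every SHMT library therefore lay above every wild-type library, and the SHMT values lay close together.

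The means of HLHm7 were 2.63 ± 0.782 CPM (SD, n = 3) in OregonR against 13.8 ± 0.908 CPM in SHMT. The fit across all 6884 tested genes gave a log2 difference of 2.38 (SE 0.28), or 5.20-fold. Of the tested genes, 93 (1.35%) had a larger log2 difference in this direction. Because the members were chosen with this contrast known, these values are a description and carry no p-value. Across all genes tested, 32.9% were called higher and 25.8% lower in SHMT at this label (adjusted p under 0.05), or 58.7% in either direction. Leaving out any 1 library kept the log2 difference between 2.24 and 2.66. Since the RNA came from whole embryos, more expressing cells and more RNA per cell in SHMT cannot be told apart.

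HLHm5 was the next most counted member and was also higher in SHMT at the 0–1 hr label. It had 32, 13 and 9 reads in the wild-type and 43, 41 and 36 in the SHMT libraries. In CPM these were 1.21, 0.725 and 0.447 against 2.05, 1.86 and 1.85, and the groups did not overlap. The wild-type libraries differed among themselves by more than the SHMT libraries did, with means of 0.795 ± 0.388 and 1.92 ± 0.110 CPM (SD, n = 3).

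From the summed reads of HLHm5, 120 against 54, the ratio of SHMT to wild type was 2.29, with an exact 95% interval of 1.65 to 3.22. Such intervals cover counting error only, since reads are not independent molecules and the spread between libraries is left out. The log2 ratio of 1.20 rested in part on wild-type replicate 1, without which it was 1.73. The matching ratio for HLHm7, from 862 against 176 reads, was 5.05 (4.29 to 5.97).

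The remaining members were near the limit of detection at this depth. HLHmgamma, whose protein acts in neural stem cells of later stages, had 6, 1 and 4 reads in wild type and 0, 1 and 0 in SHMT at the 0–1 hr label. Its 3 wild-type values of 0.0558 to 0.228 CPM lay above the 3 SHMT values of 0 to 0.0454 CPM, the opposite order to HLHm7 and HLHm5. The lowest wild-type and the highest SHMT value were 1 read each, so only library scaling parted the groups. With 1 read against 11 the ratio was 0.0938 (0.00218 to 0.645). HLHmdelta had 5, 1 and 1 reads in wild type and 0, 0 and 1 in SHMT, and the groups overlapped. Its ratio of 0.147 had an interval from 0.00327 to 1.15, so a difference was not detectable.

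HLHmbeta was the member with the most similar reads in both genotypes, 5, 1 and 2 in wild type and 2 in each SHMT library. Its ratio was 0.773, but the interval ran from 0.221 to 2.54. HLHm3 had 0, 0 and 2 reads in wild type and 2, 1 and 2 in SHMT, a ratio of 2.58 with an interval from 0.422 to 27.1. For neither gene was a difference detectable at this depth. At the 0–1 hr label, then, 2 of the 6 members lay wholly higher in SHMT and 1 lay wholly lower. The latter, HLHmgamma, was parted by library scaling alone. Of the 12206 genes with a read, 20.1% lay wholly higher and 21.9% wholly lower in these libraries, and nothing is read from the members' counts beyond their values.

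**Figure D1:**
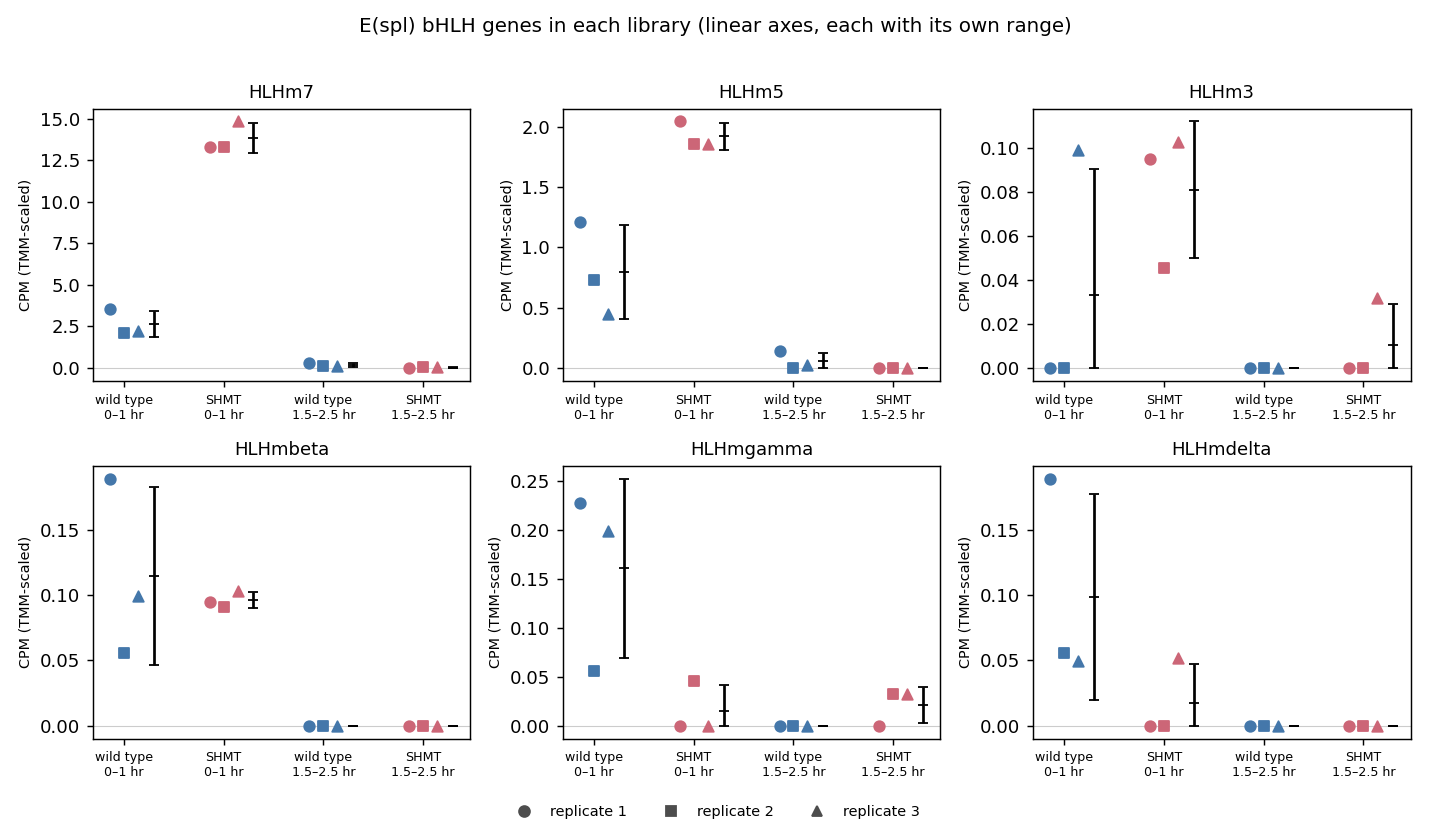
CPM of the 6 members in each of the 12 libraries, on linear axes that differ between panels, with the mean and SD of each group of 3 beside its points (the lower bar stops at 0). HLHm7 in SHMT at the 0–1 hr label stood at 13.3 to 14.9 CPM against 2.12 to 3.53 CPM in wild type, while HLHm3, HLHmbeta, HLHmgamma and HLHmdelta stayed below 0.23 CPM in every library.

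To compare the genes with each other, CPM were divided by exon length in kilobases. In wild type at the 0–1 hr label HLHm7 stood at 2.68 ± 0.796 CPM per kb (SD, n = 3), HLHm5 at 0.902 ± 0.440 and HLHmgamma at 0.176 ± 0.101. HLHmbeta followed with 0.118 ± 0.0699, HLHmdelta with 0.0971 ± 0.0781 and HLHm3 with 0.0254 ± 0.0440 CPM per kb. Only the step from HLHm7 to HLHm5 and that from HLHm5 to HLHmgamma exceeded the spread between libraries, and the neighbours from HLHmgamma to HLHm3 did not differ beyond it.

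In SHMT at the same label the order at the top was the same, with HLHm7 at 14.1 ± 0.925 and HLHm5 at 2.18 ± 0.125 CPM per kb. HLHmbeta stood at 0.0985 ± 0.00635 and HLHm3 at 0.0622 ± 0.0240, above HLHmdelta and HLHmgamma, which had 1 read each. The steps from HLHm7 to HLHm5 and from HLHm5 to HLHmbeta were again larger than the spread. The lower neighbours differed by a few reads only.

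HLHm7 also made up a larger share of the bHLH reads in SHMT. Of the reads of all 7 bHLH genes it took 60.0, 64.4 and 60.8% in the 3 wild-type libraries at the 0–1 hr label, and 70.7, 77.5 and 80.1% in the SHMT libraries. The pooled shares were 61.1% (exact Clopper-Pearson 95% interval 55.2 to 66.8%) and 75.9% (73.4 to 78.4%). The share of HLHm5 was 18.8% (14.4 to 23.8%) in wild type and 10.6% (8.84 to 12.5%) in SHMT. The counting intervals of these shares did not overlap between the genotypes for either gene, but they leave out the spread between libraries. Per library the share of HLHm5 was 20.65, 22.03 and 12.16% in wild type against 10.86, 10.85 and 9.97% in SHMT. Shares of 1 total are tied to each other, and that of HLHm5 fell although its own CPM rose.

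Along the complex, the genes next to HLHm7 were read in the same libraries. E(spl), its neighbour on the side of gro and the gene of the m8 bHLH protein, had 14, 5 and 11 reads in wild type and 69, 40 and 31 in SHMT at the 0–1 hr label. In CPM these were 0.531, 0.279 and 0.547 against 3.29, 1.82 and 1.60, with no overlap, and the pooled ratio was 4.81 (3.23 to 7.40). E(spl) did not reach the count minimum. With a minimum of 1 read, edgeR gave a log2 difference of 2.34 with an adjusted p of 0.00431.

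The complex also holds genes of the Bearded family, small proteins that act on the Notch pathway, of which m4 had the most reads. It stood at 46.1, 50.3 and 48.2 CPM in wild type against 81.5, 73.9 and 76.2 CPM in SHMT, and the groups did not overlap. Its log2 difference of 0.68 (SE 0.28) missed the threshold, with an adjusted p of 0.0524. The p depended on the setting, from 0.00204 with only the compared groups in the fit to 0.341 with DESeq2. The reads of HLHm7 came to 7.66, 4.22 and 4.64% of those of m4 in wild type and 16.4, 18.0 and 19.5% in SHMT.

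The Bearded family gene malpha had 40, 16 and 18 reads in wild type and 36, 37 and 23 in SHMT, a ratio of 1.34 (0.978 to 1.84), with overlapping groups. The genes m1, a Kazal-type protease inhibitor gene, m2 and m6 had at most 8 reads per genotype summed over the 3 libraries. At the end of the complex, gro, the gene of the corepressor Groucho, fell in SHMT. It stood at 969, 673 and 1115 CPM in wild type against 421, 349 and 635 CPM in SHMT, a log2 difference of −0.97 (SE 0.21, adjusted p = 0.00216). The gene Exo84 overlaps gro in BDGP6, and whether the counting used strand is not given in the sources used here. Of the 7 other genes of the complex 2 were tested, and 0 were called higher and 1 lower. Over all tested genes these shares were 32.9% and 25.8%.

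**Figure D2:**
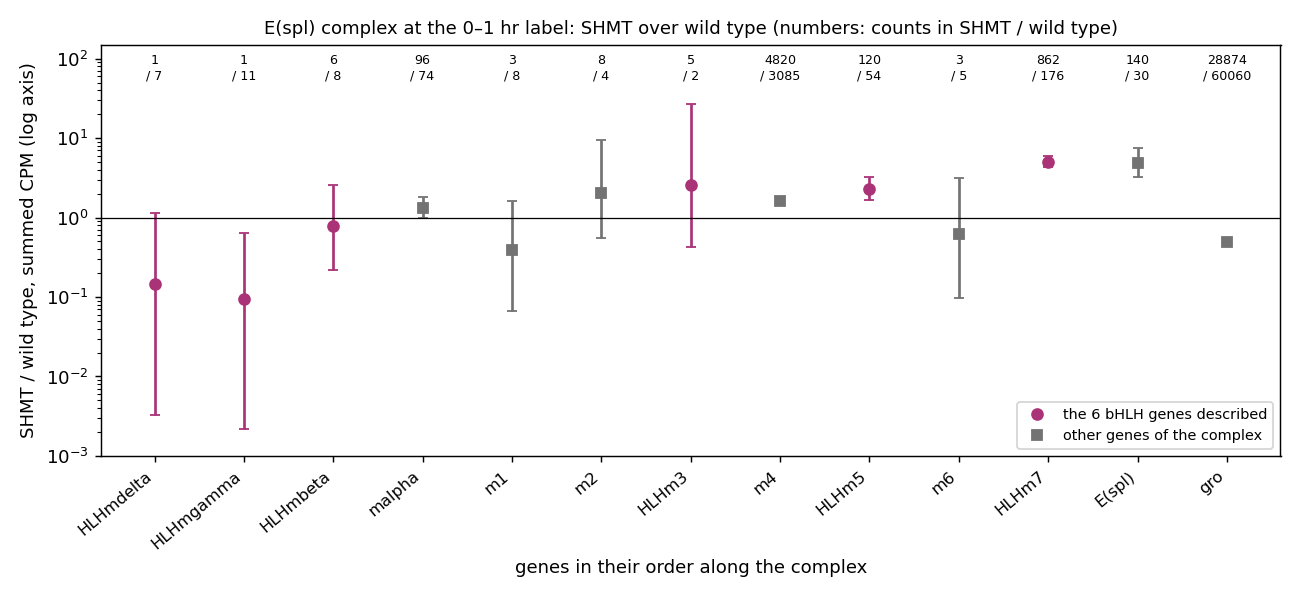
Ratio of SHMT to wild type in summed CPM at the 0–1 hr label (log axis) for the 13 genes in their order along the complex, with exact 95% counting intervals and the summed reads of SHMT over wild type above each point. HLHm7 (5.05) and E(spl) (4.81) stand highest with narrow intervals, and gro lies below 1. The intervals of HLHmdelta, HLHmbeta and HLHm3 cross 1, as do those of malpha, m1, m2 and m6.

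Bearded family genes outside the complex rose. Bearded proteins bind the ubiquitin ligase Neuralized and limit its action on Delta. All 4 of these genes were tested and called higher in SHMT at the 0–1 hr label, beside 32.9% of all tested genes. Their median log2 difference was 1.53 beside 0.02 over all genes tested. Brd stood at 18.7, 12.3 and 14.7 CPM in wild type against 47.7, 56.5 and 77.7 CPM in SHMT, a log2 difference of 1.99 (SE 0.43, adjusted p = 0.00233). The log2 differences were 1.75 for Tom (adjusted p = 0.0314), 1.32 for Ocho (0.0266) and 0.87 for BobA (0.0186). With DESeq2 the calls of Tom and Ocho were lost (adjusted p = 0.106 and 0.205), and the call of BobA was lost without replicate 3 of either genotype (0.0515 and 0.0857). At this label both Tom and Ocho were also lost without replicate 2 or 3 of either genotype, and Tom without wild-type replicate 1, with adjusted p from 0.0528 to 0.0855.

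Among ligands, receptor and processing factors of Notch, 14 of 16 genes were tested, 5 rose and 5 fell. Over all tested genes 32.9% were called higher and 25.8% lower. Dl, the gene of the ligand Delta, rose from 94.7, 97.9 and 118.6 CPM in wild type to 191, 193 and 166 CPM in SHMT (log2 difference 0.82, SE 0.11, adjusted p = 1.08e-04). N, the gene of the receptor Notch, rose by a log2 difference of 0.42 (adjusted p = 0.0342), a call lost without replicate 1 or 2 of either genotype at this label (adjusted p = 0.0681 to 0.131) and without wild-type replicate 1 of the 1.5–2.5 hr label (0.0516). dx, the gene of the ubiquitin ligase Deltex, rose by 1.22 (adjusted p = 1.11e-05) and rumi, which codes for a glucosyltransferase acting on Notch, by 0.78 (adjusted p = 7.56e-05). Su(dx), a gene for a ubiquitin ligase that lowers Notch activity, rose by 0.44 (adjusted p = 0.00302). neur, the gene of Neuralized, did not pass the test, with a log2 difference of −0.21 (adjusted p = 0.241) that became 0.012 with library sizes alone.

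The 5 genes of this list that fell were mib1, the gene of a ubiquitin ligase for Notch ligands (−0.92, adjusted p = 0.043), kuz, which codes for the protease that cleaves active Notch (−0.56, adjusted p = 0.00957), Psn and aph-1, genes of the gamma-secretase complex (−0.27 and −0.26, adjusted p = 0.0309 and 0.0172), and numb, whose protein inhibits Notch (−0.35, adjusted p = 0.0175). With library sizes alone all 5 calls were lost, with adjusted p from 0.0547 for kuz to 0.784 for aph-1. Without replicate 1 of both genotypes only the call of kuz among them was kept. Leaving out single libraries also ended the calls of mib1 (adjusted p up to 0.193), Psn (up to 0.103), numb (up to 0.0663) and aph-1 (0.0581, without wild-type replicate 2).

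Of the genes of the Notch transcription complex and its corepressors 5 of 5 were tested, with a median log2 difference of −0.73. Of them 0 rose and 3 fell, beside 25.8% of all tested genes called lower. These were H, whose protein Hairless turns Su(H) into a repressor (−1.16, adjusted p = 0.00115), the corepressor gene CtBP (−0.73, adjusted p = 0.00108) and nej, which codes for the acetyltransferase CBP (−1.19, adjusted p = 0.00208). Su(H) itself had a log2 difference of −0.25 (adjusted p = 0.0839) and mam, the gene of Mastermind, one of 0.56 (adjusted p = 0.0542). Neither passed. Between the genotypes HLHm7 was higher in SHMT, where gro, H and CtBP were lower. Within SHMT the order was not inverse, since replicate 3 had the highest CPM of HLHm7, gro, H and CtBP alike. A link between them was not tested.

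Proneural bHLH genes are known targets of repression by E(spl) proteins. Of 9 proneural genes and partners 6 were tested, 2 rose and 0 fell, beside 32.9% of all tested genes called higher. l(1)sc stood at 13.2, 16.1 and 17.7 CPM in wild type against 41.5, 36.4 and 20.6 CPM in SHMT (log2 difference 1.07, SE 0.24, adjusted p = 0.00248). ac rose by 0.90 (adjusted p = 0.00673). sc and amos did not pass, with log2 differences of 0.52 and 0.66 (adjusted p = 0.261 and 0.199). Their partners da and emc did not pass either, and the log2 difference of da, −0.21, became 0.019 with library sizes alone and 0.17 without wild-type replicate 1.

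Hairy-related genes outside the complex gave 3 tested of 6, with 0 called higher and 2 lower, beside 25.8% of all tested genes called lower. The pair-rule gene h had a log2 difference of −1.23 (adjusted p = 0.0132), a call lost without wild-type replicate 1 (0.0683), and cwo one of −0.72 (adjusted p = 9.7e-04). dpn did not pass (−0.25, adjusted p = 0.47). Of 8 mesectoderm and ventral regulators 7 were tested, 1 rose and 1 fell, beside 32.9% and 25.8% of all tested genes. dl, the maternal gene of the ventral factor Dorsal, rose by 1.00 (adjusted p = 6.1e-04). vnd fell by 1.47 (adjusted p = 0.00783), a call lost without both libraries that had over 11% of reads outside genes (0.104). sim, the master gene of the mesectoderm, had 4, 5 and 5 reads in wild type and 2, 2 and 1 in SHMT, too few for a test.

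Over all 55 Notch-related genes 41 were tested, 12 rose and 12 fell, beside 32.9% of all tested genes called higher and 25.8% lower. The counts of each list above stand beside the same shares. Library sizes alone in place of TMM moved the median log2 difference of all genes from 0.02 to 0.25, and 7 in place of 12 Notch-related genes were then called lower.

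**Figure D3:**
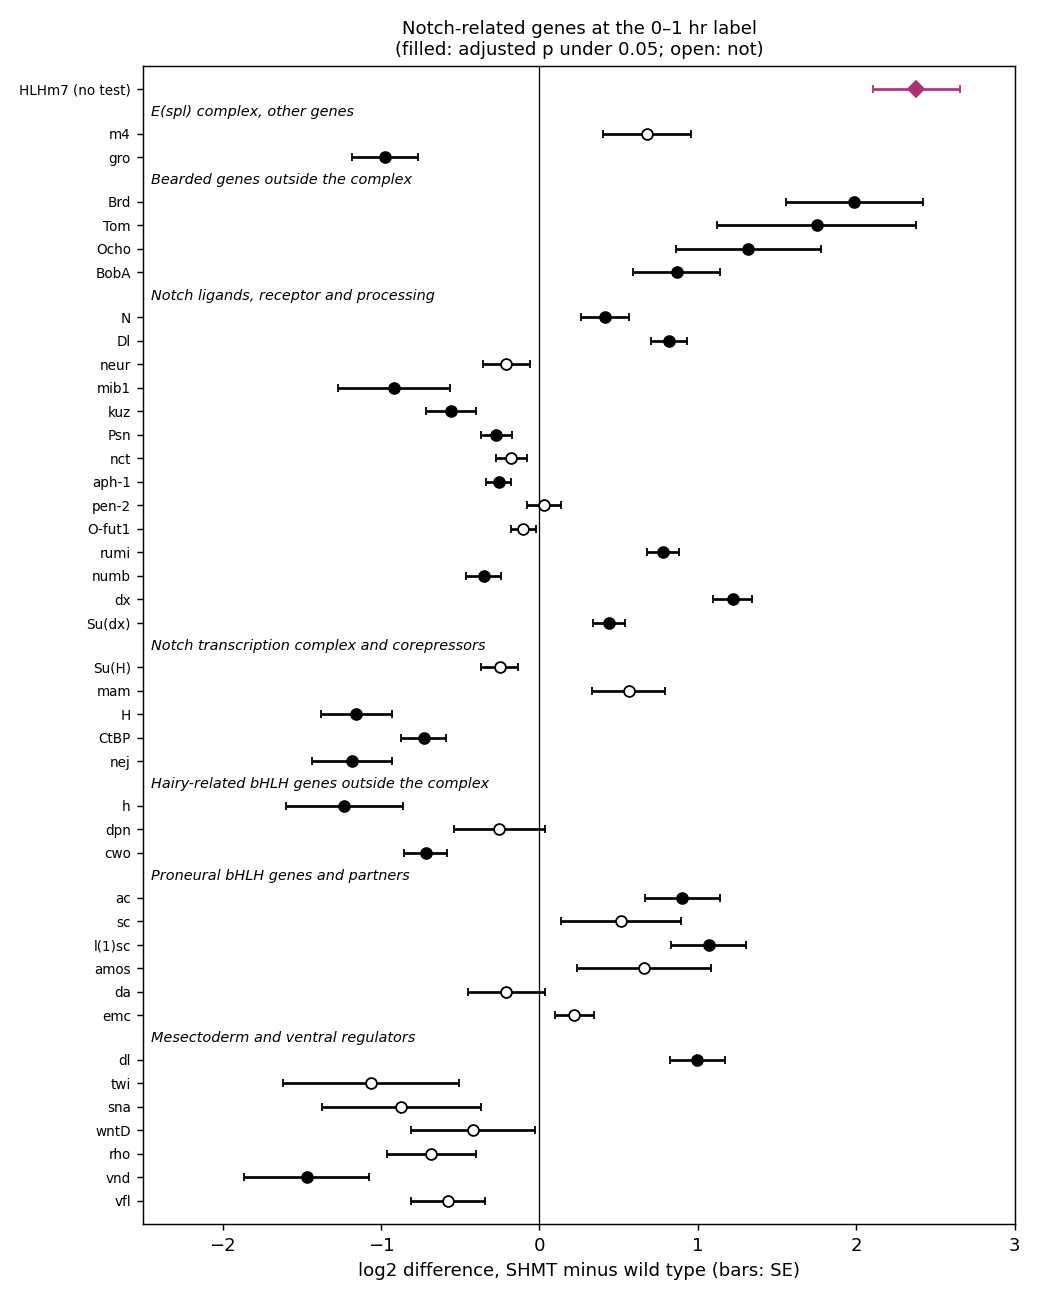
Log2 difference of SHMT minus wild type with its SE at the 0–1 hr label, for HLHm7 (diamond, no test) and the 41 tested Notch-related genes by list, filled where the adjusted p was under 0.05. The 4 Bearded family genes outside the complex lie to the right, with a median of 1.53, and gro, H, CtBP and nej to the left.

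The genotypes also differed in the stage markers. At the 0–1 hr label the summed zygotic markers stood at 8005 to 11410 CPM in wild type against 4323, 4660 and 8074 CPM in SHMT, with a read for all 7 genes in every library. The summed maternal markers stood at 232 to 315 CPM in wild type against 406 to 523 CPM in SHMT. Single markers did not all follow these sums. Of the maternal ones osk, swa and gnu lay wholly higher in SHMT, whereas bcd, exu and cort overlapped. nos lay wholly lower, at 98.45 to 99.78 CPM in wild type against 67.95 to 84.38 CPM in SHMT. Of the zygotic ones bnk, Z600, kni and ftz lay wholly lower in SHMT, whereas nullo, slam and Sry-alpha overlapped. Genes that rose did not share 1 label profile. N, Dl, dx, rumi, Su(dx) and dl had more RNA at the 1.5–2.5 hr than at the 0–1 hr label in wild type, like the maternal markers, for instance N with 232 ± 22.7 against 43.7 ± 11.2 CPM (SD, n = 3). Brd, Tom, Ocho, BobA, l(1)sc and ac, which also rose, had more RNA at the 0–1 hr label, like HLHm7 and the zygotic markers, by 39.4-fold (Ocho) to 237-fold (BobA) in wild type. mib1 and cwo had more RNA at the 1.5–2.5 hr label, by log2 differences of 1.73 and 2.12, and fell in SHMT. The part of these markers in the genotype differences was not tested.

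Within SHMT at the 0–1 hr label, replicate 3 had the most zygotic marker RNA. It was nearer to wild type than replicates 1 and 2 for l(1)sc, sc, amos, twi and sna, and farther from wild type for HLHm7 (14.9 CPM), Brd (77.7 CPM), Tom (501 CPM), Ocho (47.7 CPM) and BobA (33.1 CPM). These genes were picked after their values were seen, and with 3 libraries nothing further is read from the order.

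In wild type, replicate 1 at the 0–1 hr label had the highest CPM of HLHm7, HLHm5, HLHmbeta, HLHmdelta and HLHmgamma. It was also the library with 11.7% of reads outside genes. In sum it held the most RNA of 6 markers of the later nervous system, 3.87 CPM against 1.17 and 2.73 CPM. Of these sums elav alone made 2.31, 0.390 and 1.14 CPM. repo was highest in replicate 3, at 0.745 CPM against 0.304 CPM in replicate 1. In SHMT at this label the nervous system markers summed to 1.27 to 1.91 CPM. Their part in the levels of the members was not tested. Without replicate 1 of both genotypes the log2 difference of HLHm7 was 2.76 and the log2 ratio of HLHm5 was 1.76.

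**Figure D4:**
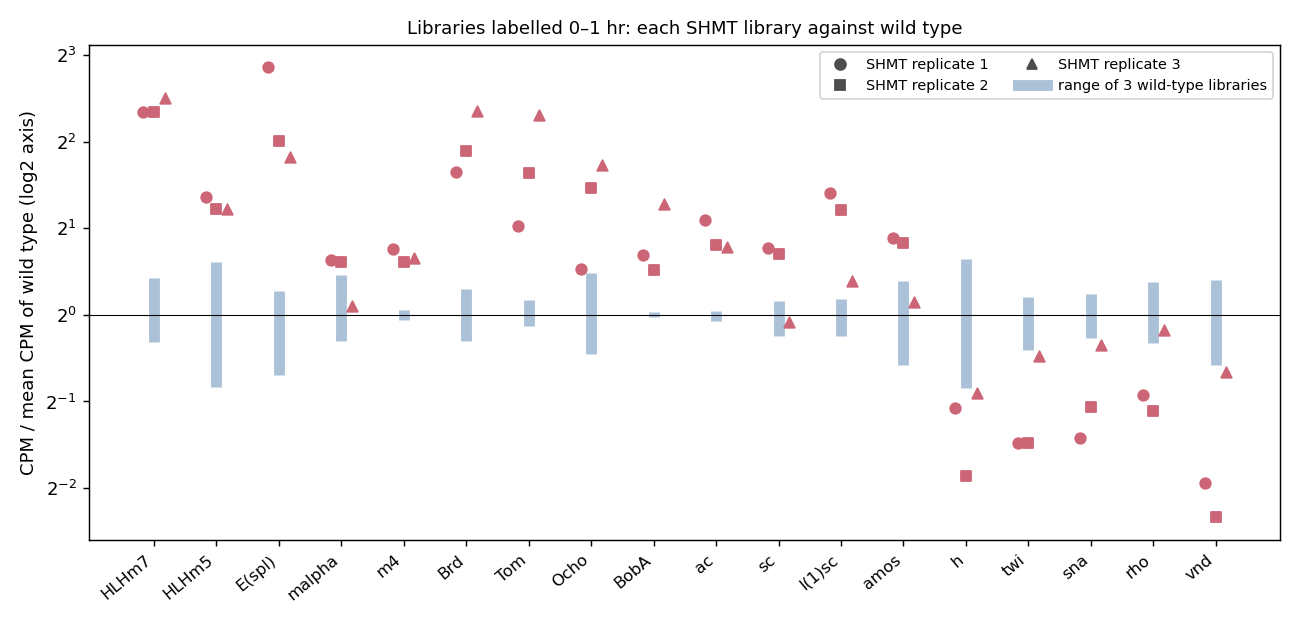
CPM of each SHMT library labelled 0–1 hr over the mean CPM of the 3 wild-type libraries (log2 axis), with the range of the wild-type libraries as a bar. All 3 SHMT libraries lie above that range for HLHm7, HLHm5, E(spl), m4, Brd, Tom, Ocho, BobA, ac and l(1)sc. Replicate 3 (triangles) lies within or near it for malpha, sc and amos.

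At the 1.5–2.5 hr label the members were almost without reads. HLHm7 had 11, 4 and 4 reads in wild type and 0, 1 and 1 in SHMT, or 0.302, 0.0995 and 0.109 CPM against 0, 0.0318 and 0.0318 CPM. Here the wild-type libraries lay above the SHMT libraries, the reverse of the 0–1 hr label. The ratio of SHMT to wild type, from 2 against 19 reads, was 0.137 (0.0154 to 0.567). Of the genes with a read, 15.1% lay wholly lower in SHMT at this label and 10.6% wholly higher, and nothing is read from HLHm7 being among the former.

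HLHm5 had 5, 0 and 1 reads in wild type and 0 in all 3 SHMT libraries at the 1.5–2.5 hr label. A count of 0 allows up to 3 reads over the group, or 0.0343 CPM, against 0.0529 CPM measured in wild type. HLHmgamma had 2 and HLHm3 had 1 read in SHMT, and HLHmbeta and HLHmdelta had none in either genotype. No difference between the genotypes was detectable for these 5 genes at this depth.

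Of the 41 tested Notch-related genes 0 were called in either direction at the 1.5–2.5 hr label by edgeR, beside 2.85% of all genes called higher and 4.15% lower, 7% in either direction. An unadjusted p under 0.05 was reached by 5 of the 41, and DESeq2 called 1. gro stood at 279, 293 and 276 CPM in wild type against 347, 323 and 355 CPM in SHMT, with no overlap and the opposite order to the 0–1 hr label. The interaction of genotype and label for gro was 1.25 on the log2 scale (SE 0.29, adjusted p = 0.00656). Over all genes 12.2% had a positive and 26.3% a negative interaction that passed, 38.5% in either direction.

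Between the labels all members with more than a few reads were higher at the 0–1 hr label, as were the zygotic markers. In wild type HLHm7 was 16.3-fold higher (10.2 to 27.8) and HLHm5 15.9-fold (6.83 to 45.1). In SHMT the ratio of HLHm7 was 603 (166 to 4987), resting on 2 reads at the 1.5–2.5 hr label. HLHm5 was at least 56.0-fold higher in SHMT at the 0–1 hr label, against the floor of 3 reads over the group, and its exact 95% interval began at 44.8. The counting intervals of the genotypes did not overlap for HLHm7, and the difference between these ratios was not tested.

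HLHmgamma, HLHmbeta and HLHmdelta had 11, 8 and 7 reads at the 0–1 hr label in wild type and none at the other, so against the floor of 3 reads over the group they were at least 6.46-fold, 4.70-fold and 4.11-fold higher. The floor leaves out the counting error of the 0–1 hr reads, with which the exact 95% intervals began at 4.42, 3.01 and 2.54. In SHMT only HLHmbeta had more than 5 reads at the 0–1 hr label among these 4 low genes, 6 against 0. The libraries of the labels did not overlap for 5 of the 6 members in wild type, all but HLHm3, and for HLHm7, HLHm5, HLHm3 and HLHmbeta in SHMT. For HLHm3 the nearest values of the labels were 1 read each, parted by library scaling alone. Its ratio in SHMT, 6.995, had an interval from 0.783 to 331. Over all genes with a read, 38.1% lay wholly higher at the 0–1 hr label and 27.1% wholly lower in wild type, and 33.5% and 26.0% in SHMT.

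Among all tested genes, the 3 with the profile over the 12 libraries most like that of HLHm7, by Euclidean distance between centred log2 CPM, were CG34136 (distance 2.89, Pearson's r 0.97), Obp99a (2.90, r 0.96) and Ocho (3.12, r 0.96). These distances describe libraries that share genotype, label and depth. Obp99a stood at 6.49, 5.30 and 4.87 CPM in wild type against 7.24, 5.54 and 10.04 CPM in SHMT in the 0–1 hr libraries, without passing the test (adjusted p = 0.255). At the 1.5–2.5 hr label it was lower in SHMT, as HLHm7 was, with a log2 difference of −3.28 (SE 0.78, adjusted p = 0.0254).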

How the data were processed

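RNA from whole embryos was sequenced in 12 libraries. The authors deposited counts, whole numbers of reads that HTSeq assigned to each gene. The submitters' processing notes name CASAVA 1.8.2, Bowtie2 2.1.0 and the build dm3. The version of HTSeq and its use of strand: not given in the sources used here. Reads outside genes (4.57 to 11.7% of a library) and ambiguous reads stayed out of library sizes and tests. Groups came from the sample labels. The members and gene lists were chosen with earlier results of these data known.

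A gene was tested if it averaged at least 50 counts in at least 1 group (6884 genes). With edgeR 4.0.16 (limma 3.58.1 and R 4.3.3), a quasi-likelihood model with 4 group means and TMM scaling was fitted to all libraries, with Benjamini-Hochberg adjustment over the tested genes. A call is an adjusted p under 0.05. The fit was tested on simulated counts. Ratios of members come from summed reads over summed scaled library sizes, with exact intervals.

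The genes named are the 6 members, the rest of the complex, N, Dl, neur, Su(H), H, h, da, emc and sim, up to 4 tested genes of each other list with the lowest adjusted p in either genotype comparison, and the 3 nearest profiles of HLHm7. The genes mib1, kuz, Psn, aph-1, numb, sc, twi and sna were added after their values were seen. Exon length (BDGP6, used for names, order, strand and length alone) replaced the planned protein length, and the planned search of promoter and protein sequences was not run. No coordinates are given, since the counts use dm3.

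Alternatives were RLE size factors (relative log expression), unscaled library sizes, DESeq2 1.42.0, count minimums of 1 and 200 and filterByExpr, an adjusted p under 0.01, a fit to the compared groups only, a block for the replicate number, and each library left out in turn. A fit without replicate 1 of both genotypes at the 0–1 hr label, where reads outside genes exceeded 11%, was an addition made once the data had been seen. Plots used matplotlib 3.10.9 under Python 3.11.15.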

Additional observations from a re-analysis of the deposited data

Results flagged for a closer look

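HLHm7 differed between the labels in the direction of its genotype difference. Every SHMT library lay above every wild-type library at the 0–1 hr label and below it at the 1.5–2.5 hr label, and the log2 ratio of SHMT to wild type at the second label minus that at the first was −5.21. This difference was not tested for HLHm7, and it rests on 2 against 19 reads at the 1.5–2.5 hr label.

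For 14 other named genes the edgeR interaction of genotype and label passed the threshold, beside 38.5% of all tested genes. For these the genotype difference at the 1.5–2.5 hr label was not the one at the 0–1 hr label. Some of them were named for a low adjusted p in a genotype comparison, and kuz after its values were seen. Nothing is read from their number. The interaction was positive on the log2 scale for gro (1.25, adjusted p = 0.00656), H (1.32, adjusted p = 0.00699), CtBP (0.94, adjusted p = 0.00356), nej (1.06, adjusted p = 0.0344) and kuz (0.68, adjusted p = 0.0286). It was negative for N (−0.84, adjusted p = 0.00946), Dl (−0.70, adjusted p = 0.00548), emc (−0.63, adjusted p = 0.0142), dx (−1.11, adjusted p = 3.64e-04), rumi (−0.97, adjusted p = 3.55e-04), Su(dx) (−0.57, adjusted p = 0.00803), l(1)sc (−1.99, adjusted p = 0.0364), dl (−0.97, adjusted p = 0.00548) and Obp99a (−3.73, adjusted p = 0.00553). The calls of nej, l(1)sc and kuz were lost without several single libraries.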

How the results depend on the processing

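The genotype difference of HLHm7 at the 0–1 hr label stayed between 2.24 and 2.76 on the log2 scale under all alternatives run. Leaving out single libraries gave 2.24 to 2.66, for HLHm5 0.91 to 1.73 and for E(spl) 1.88 to 2.44. With library sizes alone HLHm7 stood at 2.12 ± 0.635 CPM in wild type against 13.0 ± 0.327 CPM in SHMT. With the replicate number as a block its log2 difference was 2.43. The numbers do not pair the samples by the labels, and same-numbered libraries deviated together only in part (correlations −0.24 to 0.54). Under the block the calls of Tom and Ocho were lost (adjusted p = 0.0517 for both). A median over the members was not computed, since 1 of 6 was tested.

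At the 0–1 hr label 12 Notch-related genes were called lower, against 7 with library sizes alone, 7 at an adjusted p under 0.01 and 6 without both libraries that had over 11% of reads outside genes. The sign turned for neur (0.012 with library sizes alone, 0.024 without both libraries) and da (0.019 and 0.26, and −0.44 to 0.17 without single libraries). At the 1.5–2.5 hr label 482 genes were called, against 769 with DESeq2, 255 at an adjusted p under 0.01, 1226 with only the groups compared and 296 to 586 without single libraries. Notch-related calls there were 0, against 3 higher and 2 lower with only the groups compared, 1 lower with DESeq2, 1 lower without both libraries, and 0 to 1 lower without single libraries. The log2 ratio of HLHm7 there, −2.87, ran from −3.24 to −2.195 without single libraries. Its log2 ratio of the 1.5–2.5 hr to the 0–1 hr label in wild type, −4.03, was −3.51 with library sizes alone, −3.60 without both libraries and −4.69 to −3.72 without single libraries. In SHMT it ran from −9.59 to −8.76. The interaction called 2649 genes, and 1561 at an adjusted p under 0.01. Of the Notch-related genes it called 5 higher, against 3 with library sizes alone, 9 with DESeq2, 3 at an adjusted p under 0.01 and 3 to 9 without single libraries, and 8 lower, against 7 to 13 without single libraries. The cause of these shifts was not tested.

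Depth limits 4 of the 6 members to 11 reads or fewer per group, and their ratios carry counting error of an order of magnitude.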

Other observations

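Some values outside the comparisons were chosen after they were seen. Ser, the gene of the Notch ligand Serrate, stayed below the count minimum, with 28, 11 and 25 reads in wild type and 2, 1 and 2 reads in SHMT at the 0–1 hr label, and 0 in all libraries at the other label. In CPM these were 1.06, 0.613 and 1.24 against 0.0952, 0.0454 and 0.103, an order opposite to that of Dl. fng, which codes for a glycosyltransferase that modifies Notch, had reads chiefly at the 1.5–2.5 hr label, with 12, 17 and 19 in wild type and 10, 4 and 7 in SHMT.

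Muscle genes of later embryos lay, in sum, wholly lower in the SHMT libraries in which HLHm7 was higher. Mlc2, a gene of muscle myosin, stood at 3.26, 3.24 and 2.44 CPM in wild type against 0.0476, 0.0907 and 0.103 CPM in SHMT, again with the 0–1 hr label. The 5 muscle markers together stood at 3.58 to 4.93 CPM in wild type against 0.0952 to 0.567 CPM in SHMT there. Most of each wild-type sum came from Mlc2 alone. Mhc and up also lay wholly lower in SHMT at this label, whereas the libraries of Tm2 and wupA overlapped between the genotypes. Tm2 had 3 reads in each genotype, and wupA 5 reads in wild type against 0. The eggshell genes summed to at most 0.367 CPM in any library.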
